A study of Mus musculus with 6 samples.

Results

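The miRNAs made from the miR-192/miR-194 and miR-215/miR-194 clusters were followed in the livers of 3 mice fed a normal diet (NC) and 3 mice with metabolic dysfunction-associated fatty liver disease (MAFLD). They were chosen by name, as both arms of the hairpins Mir192, Mir194-1, Mir194-2 and Mir215, and all 7 mature miRNAs are among the 1546 mature miRNAs listed for the series. All mice were male C57BL/6 mice, 8 weeks old at the start and held on their diet for 16 weeks. The MAFLD mice received a high-fat diet. The titles name C57BL/6 mice and the source labels give mouse liver. The growth and treatment protocols attached to the same samples nevertheless describe HepG2, a human liver cancer cell line. The study fed 6 mice on each diet and sequenced small RNA from whole liver as 1 library per replicate. No transgene or drug is part of either group. The model is a diet model, in which the diet itself and the liver disease it brings cannot be told apart. The mice had fasted for 6 hours before the livers were taken. The values are CPM, the reads assigned to a miRNA after scaling the reads on all listed miRNAs of each library to a sum of 1000000, and they are not divided by length.

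MiR-192, miR-194 and miR-215 are miRNAs of liver and gut epithelium. Their genes lie in pairs, each pair being copied as a common transcript, and they can be induced by p53. A hairpin yields a 5p and a 3p strand. The strand that is kept in the Argonaute protein finds its target mRNAs mainly through bases 2 to 8, the seed, so that miRNAs with the same seed can repress the same mRNAs.

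The mature sequences are shown because they decide which members can act on common targets and which can be counted apart. They were taken from the RefSeq annotation of GRCm38.p6, in which all 7 members were matched, and the capitals mark the seed.
mmu-miR-192-5p: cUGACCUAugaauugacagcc
mmu-miR-215-5p: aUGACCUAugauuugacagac
mmu-miR-194-5p: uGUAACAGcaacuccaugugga
mmu-miR-192-3p: cUGCCAAUuccauaggucacag
mmu-miR-194-2-3p: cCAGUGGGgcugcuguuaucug
mmu-miR-194-1-3p: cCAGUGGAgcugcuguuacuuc
mmu-miR-215-3p: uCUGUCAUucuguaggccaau
MiR-192-5p and miR-215-5p have the seed UGACCUA in common, and no other listed miRNA with a RefSeq sequence has it. From miR-192-5p to miR-215-5p the changes are C1A, A12U and C20A, counted from the 5′ end, and 18 of the 21 bases are identical. MiR-194-5p has a different seed, which no other listed miRNA has. It is the same molecule from both of its hairpins, so its reads cannot be assigned to a locus. The 3p strands of the miR-194 hairpins differ at 4 of 22 positions (A8G, C19U, U20C and C22G from miR-194-1-3p to miR-194-2-3p), so they can tell the loci apart. The first of these changes falls in the seed. The seed of miR-194-2-3p is also found in miR-7055-5p, which had a mean of 0.190 CPM.

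The hairpins are shown next because the position of the strands in them gives the layout of the clusters. The capitals mark the 5p strand and then the 3p strand.
Mir192: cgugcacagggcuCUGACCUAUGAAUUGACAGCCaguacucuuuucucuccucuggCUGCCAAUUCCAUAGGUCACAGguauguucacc
Mir194-2: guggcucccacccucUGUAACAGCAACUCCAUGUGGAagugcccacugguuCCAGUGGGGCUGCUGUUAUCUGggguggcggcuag
Mir194-1: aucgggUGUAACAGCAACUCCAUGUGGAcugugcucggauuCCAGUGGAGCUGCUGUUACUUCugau
Mir215: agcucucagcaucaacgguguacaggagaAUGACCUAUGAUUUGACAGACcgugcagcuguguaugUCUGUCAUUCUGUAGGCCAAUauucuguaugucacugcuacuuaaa
In GRCm38, Mir194-2 (chr19:6264643-6264728) and Mir192 (chr19:6264844-6264932) lie on the plus strand of chromosome 19 with 115 bases between them. In the GENCODE M21 annotation no other gene overlaps them, and the nearest gene upstream, the autophagy gene Atg2a, ends 2307 bases before Mir194-2. Mir194-1 (chr1:185313319-185313385) and Mir215 (chr1:185313581-185313692) lie on the plus strand of chromosome 1 with 195 bases between them. Both are inside Iars2, a mitochondrial isoleucyl-tRNA synthetase gene on the minus strand, and overlap none of its exons. Both are also inside the antisense transcript 2010103J01Rik on the plus strand, where Mir215 is exonic and Mir194-1 is intronic.

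The libraries held between 1336935 and 4685712 reads on miRNAs. MiR-122-5p, the defining miRNA of hepatocytes, made up 4.22% to 8.52% of the reads in every library. MiR-148a-3p took 48.5% to 71.4% of the reads in NC livers and 46.8% to 56.7% in MAFLD livers, and a lower share of this miRNA leaves more of the fixed sum to the rest. Over the 501 miRNAs tested, log2 fold changes had a median of 0.43 (MAFLD against NC livers), against 0.044 with median-ratio scaling, so changes of the members are also given relative to that median. Reads of miR-9-5p, a miRNA of neural tissue, reached 344 CPM in NC replicate 1 and 530 CPM in NC replicate 2, but no more than 12.4 CPM in the other libraries. In whole liver, fewer cells of a type and less of a miRNA per cell cannot be told apart.

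Reads on the 7 members spread over more than 5 orders of magnitude, and nearly all of them came from miR-192-5p. Over the 6 libraries, miR-192-5p was read 1152190 times and miR-194-5p 70916 times. MiR-215-5p was read 941 times, miR-194-2-3p 613 times and miR-192-3p 318 times. MiR-215-3p and miR-194-1-3p were read 9 and 6 times. The members together made up 6.05%, 6.95% and 8.18% of the reads in the NC livers and 10.6%, 9.25% and 8.93% in the MAFLD livers. The map of the clusters shows that the strands that can be placed on chromosome 19 carried far more reads than those on chromosome 1.

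**Figure D1:**
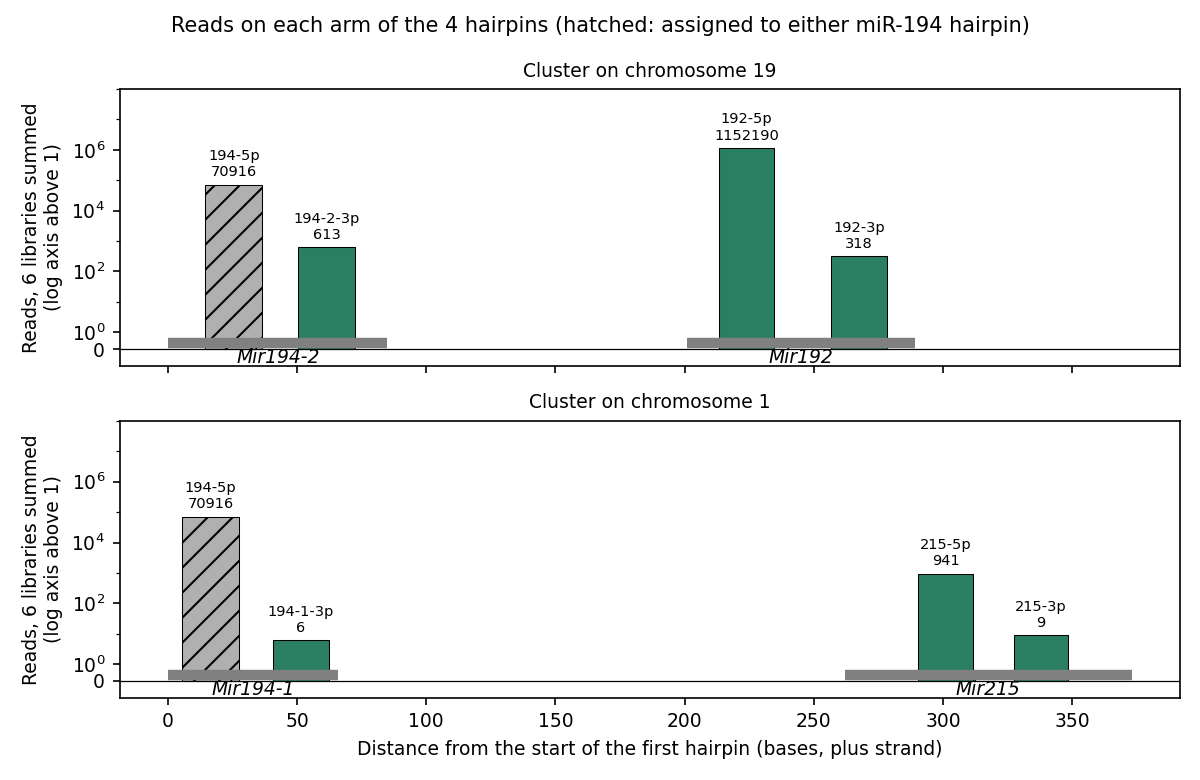
Reads on each strand of the 4 hairpins, summed over 6 libraries (vertical axis, logarithmic above 1), against the distance in bases from the start of the first hairpin of each cluster (horizontal axis). Grey bars on the axis are the hairpins, green columns are strands with a single source and hatched columns are miR-194-5p, whose 70916 reads can come from either cluster and are drawn at both. MiR-192-5p stands at 1152190 reads and miR-215-5p, with the same seed, at 941.

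MiR-192-5p, the guide strand of Mir192 and a known repressor of the mesenchymal factor Zeb2, had the largest mean level of all listed miRNAs after miR-148a-3p. It stood at 58194, 66919 and 74390 CPM in the NC livers and at 97878, 88006 and 82161 CPM in the MAFLD livers. The MAFLD livers were above all NC livers, and miR-192-5p was in rank 2 in each of them, against ranks 2, 3 and 4 in the NC livers. NC livers averaged 66501 ± 8106 CPM and MAFLD livers 89348 ± 7944 CPM (SD, n = 3 each), 1.34 times as high. Counting error was small beside this spread, with a 95% Wilson interval of 57907 to 58482 CPM in NC replicate 1. The log2 fold change was 0.43 (standard error 0.22, 95% interval −0.043 to 0.90), and limma gave an adjusted p of 0.307 (0.0718 before Benjamini-Hochberg adjustment). By a two-sided exact permutation test p was 0.1, the lower limit for groups of 3. This fold change lay at the median of all tested miRNAs (50.3th percentile). With median-ratio scaling it was −0.038 and the groups overlapped.

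MiR-194-5p, a strand of both clusters, parted the libraries in another way. It stood at 2218, 2519 and 7243 CPM in the NC livers and at 7706, 4345 and 6991 CPM in the MAFLD livers. NC replicates 1 and 2 were low, whereas NC replicate 3 was above MAFLD replicates 2 and 3. NC livers averaged 3993 ± 2818 CPM and MAFLD livers 6347 ± 1771 CPM (SD, n = 3 each). The log2 fold change was 0.84 (standard error 0.40, 95% interval −0.016 to 1.70), which is 0.41 above the median of all miRNAs, and limma gave an adjusted p of 0.284 (0.0540 before adjustment). The exact permutation test gave p = 0.3. The log2 fold change was 0.38 with median-ratio scaling, 0.34 with edgeR and 0.33 with DESeq2. With quantile normalization it was 0.10, beside a median of 0.11 over all miRNAs. Without NC replicate 3 the log2 fold change was 1.38 (adjusted p = 0.00397 from limma). In that fit 114 of the 501 miRNAs passed the adjusted p of 0.05, and the median log2 fold change over all was 0.67. With NC replicates 1 and 2 left out together, a fit with a lone NC liver chosen after seeing the data, miR-194-5p was at −0.23. The libraries with low miR-194-5p in the NC group also had the highest sums of the neural list. These were 362 and 568 CPM in NC replicates 1 and 2, against 4.91 to 15.0 CPM in the other 4 libraries. Of the 4 listed miRNAs, miR-9-5p, miR-9-3p and miR-124-3p were highest in these libraries, whereas miR-219a-5p was at 0 in NC replicate 2 and highest in MAFLD replicate 1. The part of this signal in the result was not tested.

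MiR-215-5p, the guide strand of Mir215, was scarce in these livers. It stood at 26.7, 42.7 and 59.1 CPM in the NC livers and at 112, 70.2 and 64.5 CPM in the MAFLD livers. The groups did not overlap, but the highest NC liver, with a Wilson interval of 47.4 to 73.6 CPM, and the lowest MAFLD liver, with 53.0 to 78.5 CPM, could not be told apart at this depth. NC livers averaged 42.8 ± 16.2 CPM and MAFLD livers 82.3 ± 26.0 CPM (SD, n = 3 each), 1.92 times as high. The log2 fold change was 0.95 (standard error 0.44, 95% interval 0.013 to 1.89), which is 0.52 above the median of all miRNAs. Limma gave an adjusted p of 0.269 (0.0473 before adjustment), and the exact permutation test gave p = 0.1. The direction was the same in the 20 alternatives run, with log2 fold changes from 0.43 to 1.22. Other filters, limma without the trend and the replicate block left the value as it was, so it could not turn there. The unadjusted p from these fits stayed under 0.05 in 5 of the 20.

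The strands opposite the guides were scarce or nearly absent. MiR-192-3p stood at 10.2, 15.9 and 24.7 CPM in the NC livers and at 27.8, 26.9 and 22.2 CPM in the MAFLD livers. NC replicate 3 was above MAFLD replicate 3, so the groups overlapped, and the difference on the log2 scale was 0.64 ± 0.47 (SE, limma adjusted p = 0.450), or 0.21 above the median of all miRNAs and 0.21 with median-ratio scaling. MiR-194-2-3p stood at 31.8, 24.9 and 68.1 CPM in the NC livers and at 55.1, 38.6 and 48.2 CPM in the MAFLD livers. Its highest level was in NC replicate 3, and the difference on the log2 scale was 0.30 ± 0.46 (SE, limma adjusted p = 0.754), which is −0.13 relative to the median of all miRNAs, turning to −0.15 with median-ratio scaling. MiR-215-3p was read once in each NC liver and 0, 5 and 1 times in the MAFLD livers. MiR-194-1-3p was read 0, 0 and 1 times in the NC livers and 1, 2 and 2 times in the MAFLD livers. Both had a mean under 1 CPM and were not tested, and except for the 5 reads of miR-215-3p in MAFLD replicate 2 none of their values was above 3 reads, the smallest number taken as a level.

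**Figure D2:**
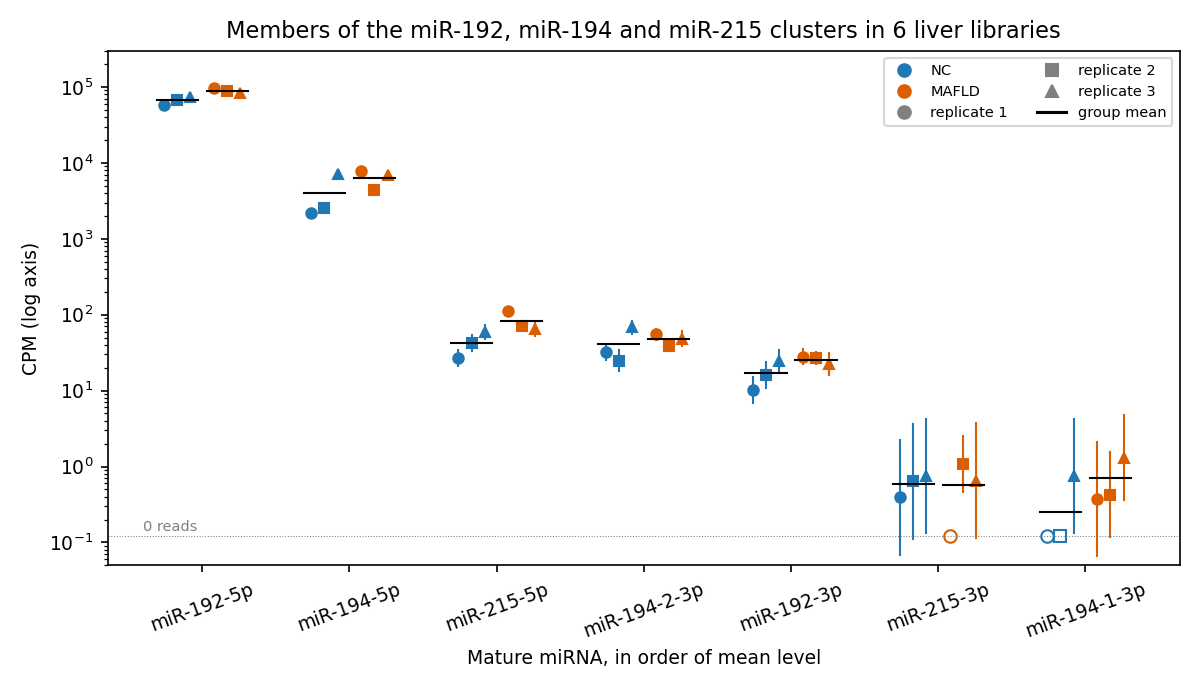
CPM of the 7 members (vertical axis, logarithmic) in 3 NC livers (blue) and 3 MAFLD livers (orange), with 95% Wilson intervals for counting error, group means as black lines and libraries without a read as open symbols on the dotted line. The MAFLD livers sit above the NC livers for miR-192-5p and miR-215-5p, and NC replicate 3 sits among or above the MAFLD livers for miR-194-5p and miR-194-2-3p.

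In the order of mean levels, miR-192-5p was above miR-194-5p and miR-194-5p was above the rest in every library. MiR-215-5p and miR-194-2-3p were not apart in the NC livers, where their means were 42.8 ± 16.2 and 41.6 ± 23.2 CPM (SD, n = 3) and their order changed between libraries. In all 3 MAFLD livers miR-215-5p was above miR-194-2-3p, but their Wilson intervals overlapped in MAFLD replicate 3. Whether the ratio of miR-215-5p to miR-194-2-3p differed between the groups was not tested. MiR-192-3p was below both in each library. MiR-215-3p and miR-194-1-3p did not differ at this depth.

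Of the 5 members tested, 0 had an adjusted p under 0.05 with limma on log2(CPM + 1), where 0.2% of all tested miRNAs had one. At an unadjusted p under 0.05 there was 1 member higher, miR-215-5p (13.4% of all tested miRNAs), and 0 lower (4.59%). MiR-215-5p kept this unadjusted p in 5 of 20 alternatives. With edgeR and with DESeq2 on the recovered reads, 0 members passed at either threshold. By CPM the groups did not overlap, with MAFLD higher, for 2 of the 5 (15.2% of all tested miRNAs), and with MAFLD lower for 0 (4.19%). With median-ratio scaling both of these, miR-192-5p and miR-215-5p, overlapped. By the deposited CPM the log2 fold changes of all 5 were above 0, as were 71.3% of all. Their median was 0.64, beside 0.43 over all tested miRNAs. Without NC replicate 3, 3 of the 5 had an adjusted p under 0.05 from limma, in a fit in which 114 of the 501 miRNAs did. They were miR-192-5p (log2 fold change 0.51, adjusted p = 0.0447), miR-194-5p (1.38) and miR-215-5p (1.22, adjusted p = 0.0368). The median over all miRNAs in this fit was 0.67, so miR-192-5p lay below it, and miR-194-5p and miR-215-5p above it. When these libraries were scaled by median ratios instead, 0 members passed the adjusted p. MiR-192-5p was then at −0.23, miR-194-5p at 0.64 and miR-215-5p at 0.49, beside a median of 0.093 over all miRNAs.

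**Figure D3:**
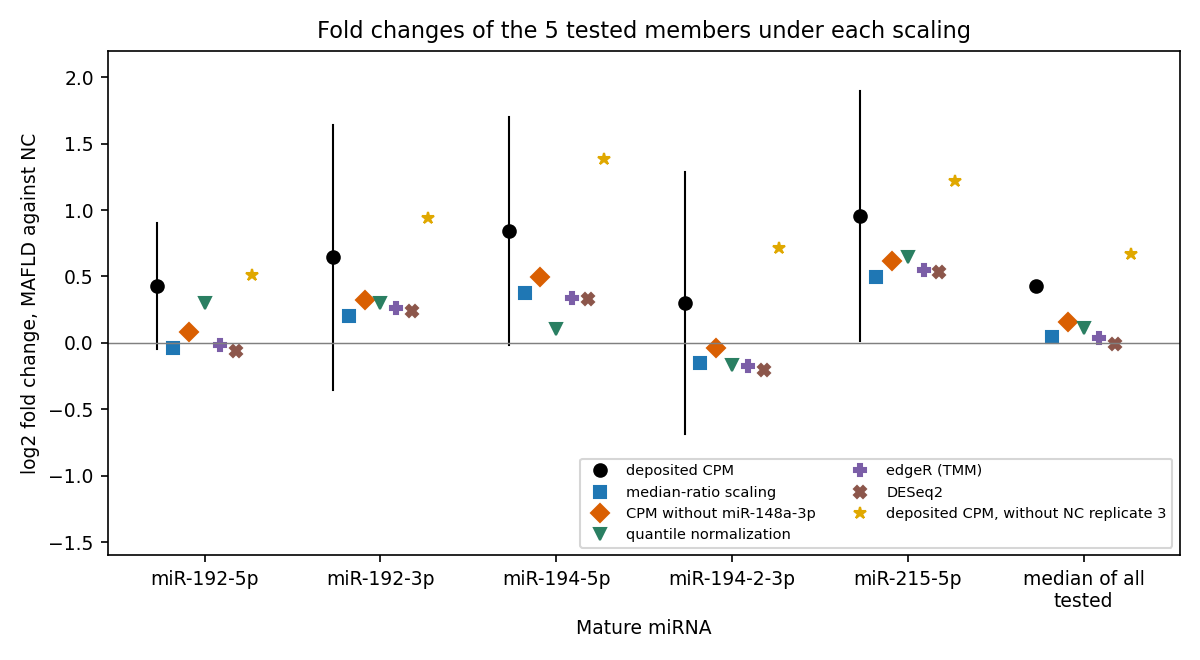
Log2 fold changes of MAFLD against NC livers (vertical axis) for the 5 tested members and the median of all tested miRNAs, under 6 ways of scaling and without NC replicate 3, with the 95% interval of the deposited CPM as a black line. The points of miR-192-5p run from 0.51 without NC replicate 3 to −0.059 with DESeq2, and miR-215-5p stays above 0 under each.

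Ratios of members within a library do not depend on the scaling, and 11 of them were compared between the groups by two-sided exact permutation tests of log2 ratios with 0.5 reads added to both sides. The smallest p possible is 0.1, and the smallest adjusted p over the 11 was 0.367, so none passed 0.05. NC and MAFLD livers were apart in 3 of them. By CPM, 15.2% of all tested miRNAs were apart with MAFLD higher and 4.19% with MAFLD lower. No such share was computed for ratios of other miRNAs, and the 11 reuse the same members, so they are not independent. MiR-192-5p was read 5707, 4201 and 3014 times per read of miR-192-3p in the NC livers and 3526, 3273 and 3708 times in the MAFLD livers (p = 0.5, exact test). The 3p strand was thus at most 0.0332% of the reads of Mir192 in any library (95% Wilson interval 0.0236% to 0.0466%). In Mir215 the 3p strand took a larger part, at 9 of 950 reads over the 6 libraries (0.947%, interval 0.499% to 1.79%). The ratio of its strands was among the 3 in which the groups were apart, but this rests on the 0.5 reads added. As deposited it was 68.0, 67.0 and 79.0 in the NC livers, 65.8 and 99.0 in MAFLD replicates 2 and 3, and without a value in MAFLD replicate 1, which had 0 reads of miR-215-3p. MiR-194-5p was read 69.8, 101 and 105 times per read of both miR-194 3p strands in the NC livers and 139, 111 and 141 times in the MAFLD livers. Here the groups did not overlap, and the mean was 92.1 ± 19.4 (SD, n = 3) in NC livers and 130 ± 16.6 (SD, n = 3) in MAFLD livers (p = 0.1, adjusted p = 0.367, exact test).

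Most reads on the miR-194 3p strands matched the chromosome 19 hairpin. Of the 619 reads on the miR-194 3p strands, 6 were miR-194-1-3p (0.969%, interval 0.445% to 2.10%). They were 1 of 212 in the NC livers (0.472%, interval 0.0833% to 2.62%) and 5 of 407 in the MAFLD livers (1.23%, interval 0.526% to 2.84%). These sums leave out the spread between mice. Compared liver by liver, the ratio of miR-194-1-3p to miR-194-2-3p gave p = 0.5 (adjusted p = 0.611, exact test). No library held more than 2 reads of miR-194-1-3p, so no difference was detectable at this depth. Which hairpin the reads of miR-194-5p came from was not measured. Among the reads with the seed UGACCUA, miR-215-5p made up 0.0458%, 0.0638% and 0.0794% in the NC livers and 0.114%, 0.0797% and 0.0785% in the MAFLD livers. The groups overlapped, with a log2 ratio of miR-215-5p to miR-192-5p that was 0.54 higher in MAFLD livers (p = 0.3, adjusted p = 0.611, exact test). The summed level of this seed was 66544 ± 8122 CPM in NC and 89431 ± 7970 CPM in MAFLD livers (SD, n = 3), almost the values of miR-192-5p alone.

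MiR-194-5p stood at 3.81%, 3.76% and 9.74% of the level of miR-192-5p in the NC livers and at 7.87%, 4.94% and 8.51% in the MAFLD livers. The lowest values were in NC replicates 1 and 2 and the highest in NC replicate 3, so the groups overlapped (log2 difference 0.41, p = 0.4, adjusted p = 0.611, exact test). The level of miR-194-2-3p relative to miR-192-5p, its neighbour on chromosome 19, was 0.0546%, 0.0371% and 0.0915% in the NC livers and 0.0563%, 0.0439% and 0.0587% in the MAFLD livers (p = 0.9, exact test). NC replicate 3 was again the highest.

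**Figure D4:**
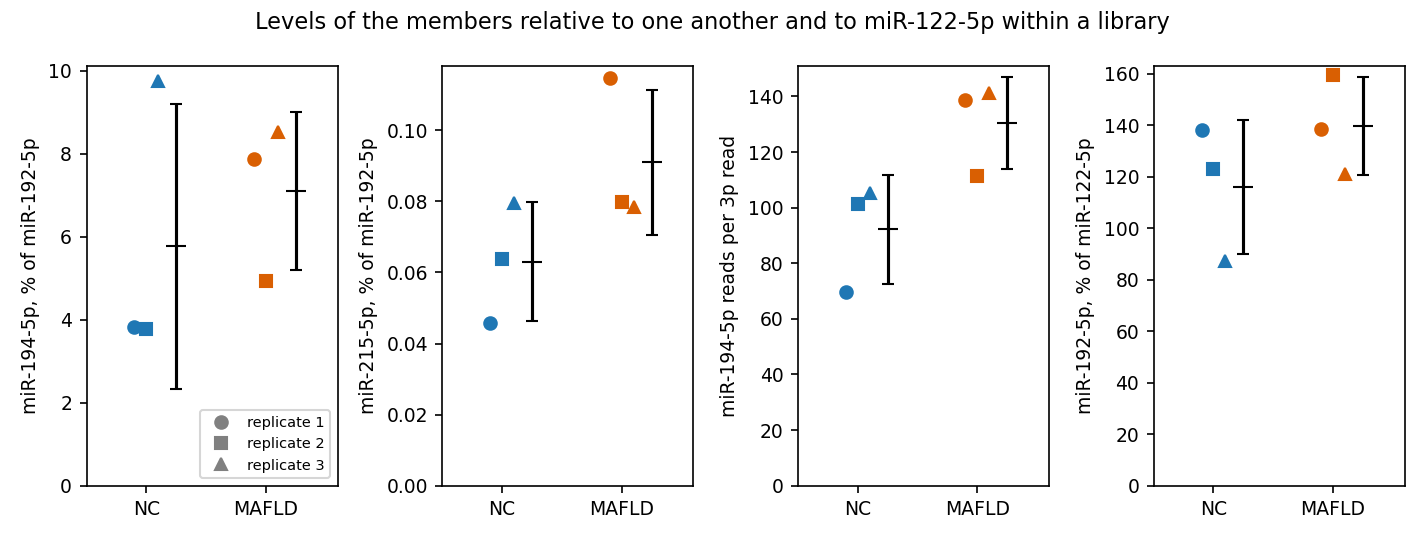
Ratios within a library (vertical axes, starting at 0) in 3 NC and 3 MAFLD livers, with the mean and SD beside the points. From left to right they are miR-194-5p and miR-215-5p as a percentage of miR-192-5p, miR-194-5p reads per read of both miR-194 3p strands, and miR-192-5p as a percentage of miR-122-5p. The groups are apart for the ratio of miR-194-5p to its 3p strands, and NC replicate 3 stands at 9.74% in the first panel, above the MAFLD livers.

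Against miR-122-5p, the main hepatocyte miRNA, miR-192-5p stood at 138%, 123% and 87.4% in the NC livers and at 139%, 159% and 121% in the MAFLD livers. NC replicate 3 was the only liver in which miR-122-5p was the more abundant of the pair, and the groups overlapped (log2 difference 0.29, p = 0.4, exact test). MiR-194-5p stood at 5.26%, 4.63% and 8.51% of miR-122-5p in the NC livers and at 10.9%, 7.87% and 10.3% in the MAFLD livers (p = 0.2, adjusted p = 0.550, exact test). MiR-215-5p stood at 0.0633%, 0.0784% and 0.0694% of miR-122-5p in the NC livers and at 0.159%, 0.127% and 0.0952% in the MAFLD livers. For miR-215-5p the groups did not overlap, and the log2 ratio was 0.82 higher in MAFLD livers (p = 0.1, adjusted p = 0.367, exact test). MiR-122-5p itself had a log2 fold change of 0.14, at the 36.5th percentile, beside a median of 0.43 over all tested miRNAs. A rise relative to it is therefore not particular to the members. How many of all miRNAs were apart in their ratio to miR-122-5p was not counted.

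A list of 8 miRNAs that are abundant in or tied to hepatocytes (both strands of miR-122, miR-148a and miR-802, with miR-101a-3p and miR-101b-3p) was set beside the members. Of these, 1 passed the adjusted p, miR-802-5p (log2 fold change 2.60, limma adjusted p = 0.0263). Without adjustment 5 of the 8 passed 0.05, each with MAFLD above NC, beside 13.4% of all tested miRNAs, and the median log2 fold change was 0.77, beside 0.43 over all. This list was chosen with results of these libraries known and holds both strands of miR-802, so it is no independent evidence. MiR-122-5p itself had a log2 fold change of 0.14 and miR-122-3p, from the same hairpin, of 0.93 (limma adjusted p = 0.212 for miR-122-3p). The summed levels of the lists of other cell types overlapped between the groups, but some of their miRNAs were apart or passed an unadjusted p under 0.05. In the neural list, 2 of 3 tested passed it with MAFLD below NC (miR-9-5p and miR-124-3p), and in the other lists those that did were above NC. Over all tested miRNAs, 13.4% passed it with MAFLD higher and 4.59% with MAFLD lower. None of the miRNAs of these lists had an adjusted p under 0.05 with limma. The 7 miRNAs of bile duct and gut epithelium summed to 244 to 927 CPM in NC and 373 to 538 CPM in MAFLD livers, with the highest sum in NC replicate 3. Among them miR-31-5p did not overlap, at 38.4 to 55.4 CPM in the NC livers and at 74.9 CPM or more in the MAFLD livers (log2 fold change 0.96, limma adjusted p = 0.238). This was 1 of the 7, near the 15.2% of all tested miRNAs that were apart with MAFLD higher, and the other 6 overlapped. The 5 leukocyte miRNAs summed to 135 to 247 CPM and 190 to 353 CPM, and 1 of them, miR-155-5p, passed the unadjusted threshold (log2 fold change 1.53, limma adjusted p = 0.221). The 4 stellate and mesenchymal miRNAs summed to 12497 to 29684 CPM and 19498 to 26617 CPM, most of it miR-143-3p. Of these 4, miR-214-3p and miR-199a-3p passed the unadjusted threshold (log2 fold changes 1.29 and 0.87, limma adjusted p = 0.223 and 0.247). The 4 erythroid miRNAs summed to 602 to 1212 CPM and 431 to 1000 CPM. Each miRNA of these lists had reads in at least 1 library. The 3 pancreas miRNAs summed to at most 5.21 CPM, with miR-216a-5p at 0 in 5 libraries. The part of these cells in the levels of the members was not tested.

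The profiles of the members over the 6 libraries were also set beside each other and beside the 233 other miRNAs whose mean reached 10 CPM. The measure was the mean absolute difference of log2(CPM + 1) after each profile was centred on its own mean, as a description over 6 libraries that share depth and scaling. The profiles nearest to miR-192-5p were those of miR-30d-5p, miR-99a-5p and miR-10a-5p, with differences of 0.089, 0.095 and 0.098, beside a median of 0.38 over the 233. MiR-194-5p, whose reads can come from either cluster, was at 0.53, and 178 of the 233 miRNAs were nearer. MiR-194-2-3p, which comes from the chromosome 19 cluster alone, was at 0.29, with 69 nearer. MiR-192-3p was at 0.22, with 28 nearer. MiR-194-2-3p and miR-192-3p had 39 to 181 and 25 to 126 reads in a library, so counting error can add to their differences. The profiles nearest to miR-194-5p were those of miR-423-3p, miR-322-5p and miR-23a-3p, with differences of 0.12 each, and its own 3p strand miR-194-2-3p was at 0.27. Like miR-194-5p, these were low in NC replicates 1 and 2, as for miR-23a-3p, at 108 and 148 CPM, against 400 CPM in NC replicate 3. Nearest to miR-215-5p were miR-195a-5p, miR-342-3p and miR-361-5p, with differences of 0.13, 0.14 and 0.16, and miR-192-3p was at 0.19, with 9 miRNAs nearer.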

How the data were processed

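Small RNA was sequenced from liver RNA of 3 mice per diet, pretreated to remove modifications that block adapter ligation, with inserts of 14 to 40 nt and 50 cycles. The deposited CPM table lists 1546 mature miRNAs, and each library in it sums to 1000000. The submitters' processing notes name FastQC, cutadapt, Bowtie, edgeR and GRCm38, without roles, versions, mismatch settings or the treatment of reads that match several miRNAs, so reads of near-identical members such as miR-192-5p and miR-215-5p may have been exchanged. The pretreatment and adapter ligation favour some sequences, which limits comparisons of levels between miRNAs.

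Each value divided by the smallest value of its library gave whole reads (100% within 0.02). A level of 3 reads was taken as the smallest the depth can show, and Wilson intervals cover counting error only. NC and MAFLD livers were compared by limma 3.58.1, run in R 4.3.3 (trend, two-sided), using log2(CPM + 1) of the 501 miRNAs whose mean reached 1 CPM, with Benjamini-Hochberg adjustment over all 501 and a threshold of 0.05. The deposited CPM is no input for a count test, so edgeR 4.0.16 (quasi-likelihood, TMM) and DESeq2 1.42.0 were run on the recovered reads as alternatives, and called 1 and 28 of all miRNAs. Ratios were compared with exact permutation tests in scipy 1.17.1. The fits were tested on simulated data in which the changed miRNAs each held under 1% of the reads. The named miRNAs are the 7 members, the hepatocyte list, miRNAs with a member's seed and the 3 nearest profiles. The members and lists were chosen with earlier results of these data known. The labels number the mice of each group 1 to 3, and the sources describe no pooling. The labels' growth and treatment protocols describe HepG2 cells, and the samples were taken as mouse liver from their titles, source and the study's methods. The study's HepG2 experiments were not analysed here.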

Additional observations from a re-analysis of the deposited data

How the results depend on the processing

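With 3 livers per group, 39 to 91 reads of miR-194-2-3p and 67 to 79 of miR-215-5p in an NC library, and under 6 of miR-215-3p and miR-194-1-3p in any, depth limits the scarce members most. Of 100 values of the 5 tested members under alternatives, 85 kept their direction and their side of the threshold, 12 turned and 3 gained the adjusted p, and the causes were not tested. Other filters, limma without the trend and the replicate block leave a log2 fold change as it is, so no direction could turn there. MiR-192-5p turned to −0.038 (median-ratio scaling), −0.014 (edgeR), −0.059 (DESeq2) and −0.23 (median-ratio scaling without NC replicate 3). MiR-194-2-3p turned to −0.15, −0.18, −0.21 and −0.011 in these, to −0.037 without miR-148a-3p in the total, to −0.17 with quantile normalization and to −0.53 with NC replicates 1 and 2 left out, where miR-194-5p turned to −0.23. These last fits, chosen after seeing the data, assume that a lone NC liver varies like the MAFLD livers. Leaving out 1 library gave log2 fold changes from 0.34 to 0.51 for miR-192-5p, 0.34 to 0.94 for miR-192-3p, 0.53 to 1.38 for miR-194-5p, 0.66 to 1.22 for miR-215-5p and 0.0082 to 0.72 for miR-194-2-3p, with 0 to 3 members past the adjusted p. The 1 member higher at an unadjusted p under 0.05 became 2 with CPM without the members and 0 with median-ratio scaling, CPM without miR-148a-3p, limma without the trend, edgeR, DESeq2 and NC replicates 1 and 2 left out, and 0 to 4 without 1 library (4 without NC replicate 3, 0 without NC replicate 1 or 2 or MAFLD replicate 1 or 3). Where it stayed at 1 the member could change, from miR-215-5p to miR-194-5p with no filter, the block, median-ratio scaling without NC replicate 3 and without MAFLD replicate 2, and to miR-192-5p with quantile normalization. Over all miRNAs, the 1 past the adjusted p became 11 without the filter, 2 with median-ratio scaling, 2 without miR-148a-3p, 0 without the trend (74 at an unadjusted p under 0.05), 28 with DESeq2, 0 with NC replicates 1 and 2 left out (37 at an unadjusted p under 0.05), 37 with median-ratio scaling but no NC replicate 3, and 0 to 114 without 1 library. Same-numbered NC and MAFLD livers are different mice and did not deviate together (correlations of 0.012, −0.020 and −0.046 across miRNAs). Livers with different numbers had correlations from −0.16 to 0.13, and whether same-numbered libraries were prepared together was not tested. With the replicate block the count became 5, while 0 members passed the adjusted p. Under the block miR-215-5p lost its unadjusted p under 0.05 (0.0657, limma) and miR-194-5p gained one (0.0399). Of 11 ratios, 9 kept their sign in 79 values. The block value of each ratio is the main difference itself, so it could not turn. Without 1 library the log2 difference of miR-194-2-3p to miR-192-5p ran from −0.43 to 0.22 and that of miR-194-1-3p to miR-215-5p from −0.71 to 0.46.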
